A study of Mus musculus with 6 samples.

Results

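The genes of the cytosolic ribosomal proteins were followed in cells sorted from mouse gliomas, with Tie2-Cre against no Cre. Members were all probe sets with 1 gene symbol in the array annotation that is Rpl or Rps with a number and at most 1 letter, or Rplp0, Rplp1, Rplp2 or Rpsa. This gave 102 probe sets of 62 genes, out of 23521 probe sets with 1 symbol and 41345 in the table. The large subunit held 61 of these probe sets (39 genes) and the small subunit 41 (23 genes). Rpl6l and Rps4l fit the pattern but are typed as pseudogenes by RefSeq (GRCm38.p6), and they are given apart. Of 79 ribosomal protein genes in a list written from general knowledge, 57 are members. Rps3a1 and Fau have a single-symbol probe set outside the pattern, 12 more lie on probe sets with several symbols, and 8 were not analysed here. All 102 probe sets were tested, with no filter on low values. Of these, 7 repeat the values of another member exactly (Rps12, Rpl23a and Rps19), which leaves 95 distinct probe sets.

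The series is about profilin-1 (Pfn1), a protein that binds actin, and what its phosphorylation does to gene expression in endothelial cells of gliomas. Per the labels, cells were taken from gliomas with magnetic beads and an antibody against CD105 (endoglin), and then kept for 12 h in glioma-conditioned medium. Each of the 6 arrays (Affymetrix Mouse 2.0 ST, total RNA) came from 1 mouse. All 6 mice carried the Pfn1fl/fl:Y129F genotype, in which Pfn1 is floxed and a Y129F form is present. The Tie2-Cre group (mice 1, 3 and 4) carried Tie2-Cre as well, and the no Cre group (mice 6, 7 and 10) did not. The Tie2 (Tek) promoter is active in endothelial cells and also in some blood-forming cells. How Cre rearranges the Pfn1 alleles, the age and sex of the mice and the tumor cells used are not given in the sources used here.

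Cytosolic ribosomes translate the messenger RNAs made from nuclear genes. The small subunit decodes the message and the large subunit joins amino acids and holds the tunnel through which the new protein leaves. Ribosomal protein messages start with a tract of pyrimidines at the 5′ end (TOP), through which mTORC1 and LARP1 control their translation, and growing cells make large amounts of them.

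Several facts of these arrays stand beside every result. Pearson's r over probe sets was 0.994 to 0.996 between arrays of 1 group and 0.986 to 0.988 between groups. Median log2 intensity per array was 7.04 to 7.10. Pfn1 was at 12.41 with Tie2-Cre and 12.37 without (change 0.04 ± 0.0623 SE, limma adjusted p = 0.780), and no probe of the deleted part is named in the files, so this level is no check of the genotype. Xist, the RNA of the inactive X, read 5.36 to 6.06 log2 in the Tie2-Cre mice and 11.16 to 11.44 log2 in the no Cre mice, and 3 of 3 measured Y genes were higher with Tie2-Cre, so that genotype and sex cannot be told apart. Of 12 endothelial markers, 1 rose (Flt1) and 1 fell (Eng, the sorting target). Their summed linear intensity was 4478 to 4783 with Tie2-Cre and 5099 to 5303 without. That sum is weighted towards bright markers such as Eng (11.76 log2 with Tie2-Cre against 12.05). The mean log2 of the 12 markers overlapped between groups (6.64 to 6.83 with Tie2-Cre, 6.67 to 6.70 without), with a median change of 0.01. Of the same 12 markers, Pecam1 (6.23 log2 over 6 arrays), Tek (5.79), Cldn5 (5.91), Emcn (4.27), Cdh5 (6.89) and Erg (6.11) lay under the arrays' median. The levels of Tie1, Kdr, Vwf and Esam are not given here. Eng (11.91) and Flt1 (8.12) lay above it, and no value in the table is 0. All 5 measured proliferation markers fell, with a median change of -0.84 and a summed intensity of 2466 to 2689 with Tie2-Cre against 4376 to 4986 without. Of 9 pericyte and smooth muscle markers 5 rose (29091 to 33071 against 20780 to 22365). Of 6 mesothelial markers 3 fell (1001 to 1170.5 against 3001 to 3341). Of 9 fibroblast markers 3 rose and 2 fell. Their summed intensity was lower with Tie2-Cre (17333 to 20637 against 23021 to 23671). Their mean log2 was higher (9.99 to 10.17 against 9.66 to 9.70), with a median change of 0.07, so the 2 measures went opposite ways. Of 9 macrophage and microglia markers 1 rose and 2 fell (1234 to 1368 against 1246 to 1416). The part of these shifts in the ribosomal protein values was not tested, and in such bulk RNA fewer cells of a type and less RNA per cell cannot be told apart.

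The start sites of 6 members are shown because the results turn on them. Rpl37a, Rps12, Rps26 and Rps18 each have a probe set that fell under all 18 alternative settings in which probe sets were kept apart, and Rps6 and Rpl28 are members whose probe sets lay near the top of the scale and did not pass the test. Each line gives the RefSeq strand that is transcribed, from 30 bases before the start site to 20 bases into the transcript (GRCm38.p6), in lower case. Capitals mark matches to any of 3 short pyrimidine words that occur in TOP tracts: CTTTC, then the word CTTCC and then the word CTCTT. The word of Rpl37a and the first word of Rps18 lie before the start site and so outside the transcript.
Rpl37a, chr1:72711230-72711279, plus strand: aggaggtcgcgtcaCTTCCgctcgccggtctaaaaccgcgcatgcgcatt
Rps12, chr10:23787190-23787239, minus strand: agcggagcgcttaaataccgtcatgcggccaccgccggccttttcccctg
Rps26, chr10:128626487-128626536, minus strand: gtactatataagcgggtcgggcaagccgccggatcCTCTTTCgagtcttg
Rps18, chr17:33955646-33955695, minus strand: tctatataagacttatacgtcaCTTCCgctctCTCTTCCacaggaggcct
Rps6, chr4:86857348-86857397, minus strand: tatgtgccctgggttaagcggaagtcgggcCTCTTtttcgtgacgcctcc
Rpl28, chr7:4792935-4792984, plus strand: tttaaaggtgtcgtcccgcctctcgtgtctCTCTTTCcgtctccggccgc

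The Rps12 window holds none of the 3 words, and its run of pyrimidines after the start is read here only as letters. RefSeq windows were found for 49 of the 62 genes, 58 windows in all. From 20 bases before to 30 bases after the start, at least 1 of the 3 words stood on the transcribed strand in 33 of 58 member windows (56.9%) and in 20.3% of all 32851 windows. CTTTC was in 29.3% of member windows and 6.57% of all windows, CTTCC in 29.3% and 10.4%, and CTCTT in 24.1% and 6.71%. On the opposite strand the same words were in 6.90%, 13.8% and 1.72% of member windows and in 6.30%, 12.3% and 7.20% of all. CGGAAG, the core bound by ETS factors, was on the transcribed strand of 34.5% of member windows from 250 bases before to 50 bases after the start and 9.51% of all, and on the opposite strand, as CTTCCG, which overlaps CTTCC, of 36.2% and 9.38%. CACGTG, the E-box bound by Myc, was in 10.3% and 7.15%. Windows of genes with a lower probe set held 1 of the 3 short words in 10 of 13 cases, and windows of the other members in 23 of 45. The counts of short words include matches before the start site, outside the transcript. All of these are matches of letters and were not tested as sites.

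With Tie2-Cre, 24 of the 102 member probe sets were lower and 0 were higher at a Benjamini-Hochberg adjusted p under 0.05 (limma, over all 23521 probe sets). Among all of those probe sets, 7.05% were lower and 4.8% higher. The 24 belong to 17 genes. At an unadjusted limma p under 0.05 the counts were 42 lower and 0 higher, against 3323 lower and 2512 higher of all 23521. Entering identical probe sets once gave 19 lower of 95. The median change of the members was -0.15 log2, against -0.0048 over all probe sets, and 82 of 102 members (80.4%) had a negative change, against 51.1% of all. All 3 Tie2-Cre arrays lay below all 3 no Cre arrays in 52 members (51.0%, against 17.3% of all probe sets), and all 3 lay above in 2 (13.6% of all).

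Leaving out 1 mouse also reduced the number of lower probe sets over the whole set, from 1658 to 924 without no Cre mouse 7. The count of lower members dropped most without no Cre mouse 7 or 10. Without no Cre mouse 7 it was 4 of 102 (3.92%), with 3.93% of all probe sets lower in that fit, so the members' share was then that of the background. Without no Cre mouse 10 it was 8 (7.84%, all 4.54%), and without the other mice in turn it was 16 to 20 (15.7% to 19.6%, all 4.52% to 5.51%). The median change of the members stayed between -0.18 and -0.14 in those 6 fits. The changes themselves were small. The members ran from -0.63 (Rpl17) to 0.21 (a probe set of Rps18), and the median SD between mice of a group was 0.091 log2 with Tie2-Cre and 0.069 without. Taken array by array, the median deviation of the members from their 6-array means was -0.098, -0.043 and -0.073 in Tie2-Cre mice 1, 3 and 4, and 0.038, 0.088 and 0.084 in no Cre mice 6, 7 and 10. Every Tie2-Cre array was thus on the low side, mouse 1 most and mouse 3 least.

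**Figure D1:**
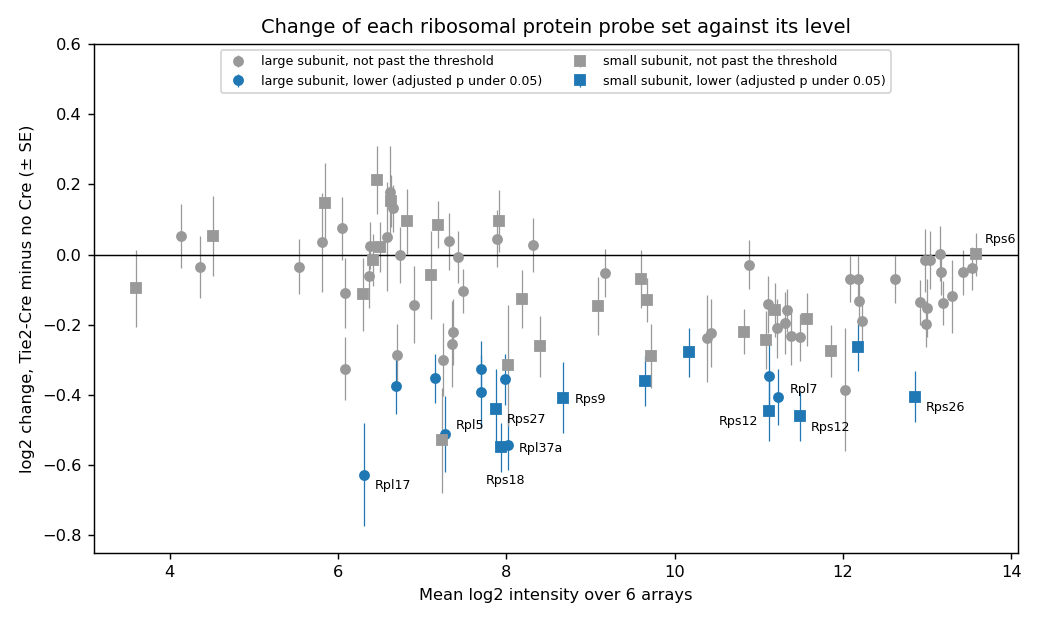
Change (log2, Tie2-Cre minus no Cre, ± SE of the limma fit) of the 95 distinct member probe sets against their mean log2 intensity over 6 arrays, with circles for the large and squares for the small subunit and blue for an adjusted p under 0.05. The 19 blue points all lie below 0, and no point at a level of 13 or more is blue.

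Among the small subunit genes, 14 of 41 probe sets were lower (34.1%, all 7.05%), in 7 genes. Of 35 distinct ones, 9 were lower (25.7%). The median change was -0.22 (-0.16 over distinct ones). The count out of 41 was 3 without no Cre mouse 7 or 10 (3.93% and 4.54% of all probe sets lower in those fits). It was 10 to 12 without the others (all 4.52% to 5.51%). Rps18, a protein of the head of the subunit, read 7.59, 7.73 and 7.65 log2 on the Tie2-Cre arrays and 8.19, 8.24 and 8.19 on the no Cre arrays in the probe set that fell. The groups were far apart there, with a change of -0.55 ± 0.0689 SE (limma adjusted p = 0.0019). Its other probe sets are given further on, because they did not fall.

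Rps12, also of the head, was the only gene with several distinct probe sets whose probe sets all fell. Probe set 17239744 read 11.18, 11.34 and 11.26 with Tie2-Cre and 11.72, 11.73 and 11.71 without (-0.46 ± 0.0698, adjusted p = 0.0046). The 6 identical probe sets read 10.81, 10.99 and 10.91 against 11.21, 11.41 and 11.42 (-0.45, adjusted p = 0.014). Probe set 17360842 read 10.02, 10.11 and 9.96 against 10.34, 10.31 and 10.28 (-0.28, adjusted p = 0.037). In each case the lowest no Cre array was above the highest Tie2-Cre array, but the last of these calls was lost in 6 of 17 other settings, among them leaving out any mouse but mouse 3. The call of the 6 identical probe sets was lost without no Cre mouse 7 or 10. The 6 identical probe sets carry 1 set of values and were the main reason why the small subunit count exceeds that of distinct probe sets.

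Rps26, which sits at the exit of the messenger RNA channel, read 12.69, 12.72 and 12.57 with Tie2-Cre and 13.01, 13.08 and 13.10 without. Its change was -0.40 ± 0.0715 (adjusted p = 0.0092), and no Tie2-Cre array came near the no Cre arrays. Rps24, a gene mutated in some patients with Diamond-Blackfan anaemia, read 9.48, 9.54 and 9.38 against 9.80, 9.84 and 9.85 (-0.36, adjusted p = 0.014) in probe set 17547521, a call lost without no Cre mouse 7 or 10.

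Rps27, a zinc-binding protein, read 7.46, 7.70 and 7.82 with Tie2-Cre and 8.26, 8.09 and 7.96 without (-0.44 ± 0.114, adjusted p = 0.043). Rps9, a protein near the entry of the messenger RNA, read 8.31, 8.61 and 8.50 against 8.80, 8.83 and 9.02 (-0.41, adjusted p = 0.035) in probe set 17485586. Rps28 read 12.09, 12.07 and 12.00 against 12.26, 12.35 and 12.34 (-0.26, adjusted p = 0.040) in probe set 17440754. The groups did not overlap in any of these, though the gap between the nearest arrays of Rps27, Tie2-Cre mouse 4 and no Cre mouse 10, was small next to its spread. The call of Rps28 was lost in 8 of 18 other settings, among them leaving out any 1 of the 6 mice. That of Rps27 was lost in 7 of 18, among them leaving out any mouse but Tie2-Cre mouse 4, and that of Rps9 in 6 of 17, among them leaving out any mouse but mouse 3. Rps15, another protein of the head, had a large change that missed the threshold: it read 7.01, 6.81 and 7.10 against 7.16, 7.70 and 7.65 (-0.53 ± 0.149, adjusted p = 0.059), with no Cre mouse 6 close to the Tie2-Cre mice.

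Among the large subunit genes, 10 of 61 probe sets were lower (16.4%, all 7.05%), each of a different gene, with a median change of -0.14. The count was 1 without no Cre mouse 7 (3.93% of all probe sets lower in that fit). It was 5 without mouse 4, 6 or 10 (all 5.49%, 4.52% and 4.54%), 6 without mouse 1 (all 4.64%) and 8 without mouse 3 (all 5.51%). Rpl37a, a small zinc-binding protein, read 7.76, 7.74 and 7.74 with Tie2-Cre and 8.39, 8.19 and 8.30 without (-0.54 ± 0.0739, adjusted p = 0.0028). The 3 Tie2-Cre mice were nearly equal and all no Cre mice were higher. Together with Rps18 (17547769), Rps12 (17239744) and Rps26 (17512752), Rpl37a (17214100) kept its call in all 18 of those settings, and these 4 are the whole of the count left without no Cre mouse 7.

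Rpl17, Rpl4 and Rpl35 lie along the exit tunnel or at its mouth. Rpl17 had the largest change of all members and read 5.75, 6.16 and 6.07 with Tie2-Cre and 6.33, 6.74 and 6.79 without (-0.63 ± 0.148, adjusted p = 0.030). Rpl4 read 7.28, 7.65 and 7.58 against 7.83, 7.91 and 7.94 (-0.39, adjusted p = 0.047) in probe set 17548759. Rpl35 read 6.59, 6.50 and 6.41 against 6.86, 6.98 and 6.80 (-0.38, adjusted p = 0.021) in probe set 17384744. Rpl17 (mean 6.31 log2) and this probe set of Rpl35 (6.69) lay under the arrays' median. Tie2-Cre mouse 1 was the lowest array for Rpl17 and Rpl4 but the highest Tie2-Cre array for Rpl35, so that no single mouse set these falls in the same way. Other proteins of the tunnel or its mouth did not pass: Rpl39, Rpl19, Rpl23a (-0.24, adjusted p = 0.064) and Rpl26 (-0.26, adjusted p = 0.246). The call was lost for Rpl17 without mouse 1, 4, 7 or 10, for Rpl35 without mouse 3, 4, 6 or 7, and for Rpl4 in 8 of 17 other settings, among them leaving out any mouse but mouse 3.

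Rpl5 carries the 5S RNA into the large subunit together with Rpl11, and the free complex binds the p53 regulator Mdm2. Rpl5 read 6.86, 7.04 and 7.13 with Tie2-Cre and 7.36, 7.53 and 7.69 without (-0.51 ± 0.107, adjusted p = 0.019). Rpl11 read 6.31, 6.49 and 6.21 against 6.29, 6.49 and 6.40 (-0.06 ± 0.0931, adjusted p = 0.762). The groups were apart for Rpl5 and overlapped for Rpl11, and the difference between these changes was not tested. Rpl11 had a mean of 6.37 log2, under the arrays' median of 7.04 to 7.10, and Rpl5 one of 7.27. Whether the Rpl11 probe set could show a fall at that level was not tested. Rpl7, another protein of the large subunit, read 10.99, 11.12 and 10.98 against 11.38, 11.55 and 11.38 (-0.41, adjusted p = 0.015) in probe set 17547573. The call of Rpl5 was lost without mouse 1, 3, 7 or 10, and that of Rpl7 without mouse 1 or 7.

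The last 4 lower genes of the large subunit were Rpl13, Rpl21, Rpl29 and Rplp1, each in 1 of its probe sets. Rpl21 read 7.85, 7.80 and 7.78 with Tie2-Cre and 8.25, 8.17 and 8.07 without (-0.36, adjusted p = 0.017). Rpl13 read 6.95, 7.02 and 6.95 against 7.29, 7.41 and 7.28 (-0.35, adjusted p = 0.015). Their groups were separate, with the no Cre arrays spread over more than the Tie2-Cre arrays. Rpl29, also known as a heparin-binding protein, read 10.88, 11.09 and 10.87 against 11.20, 11.42 and 11.26 (-0.35, adjusted p = 0.049), close to the threshold and lost in 8 of 17 other settings, among them leaving out any mouse but mouse 3. Rplp1, a protein of the acidic stalk that engages elongation factors, read 7.65, 7.51 and 7.47 against 7.78, 7.94 and 7.88 (-0.33, adjusted p = 0.034). Rplp1 lost its call without any mouse but Tie2-Cre mouse 1, Rpl21 without mouse 3, 6 or 7, and Rpl13 without no Cre mouse 7.

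**Figure D2:**
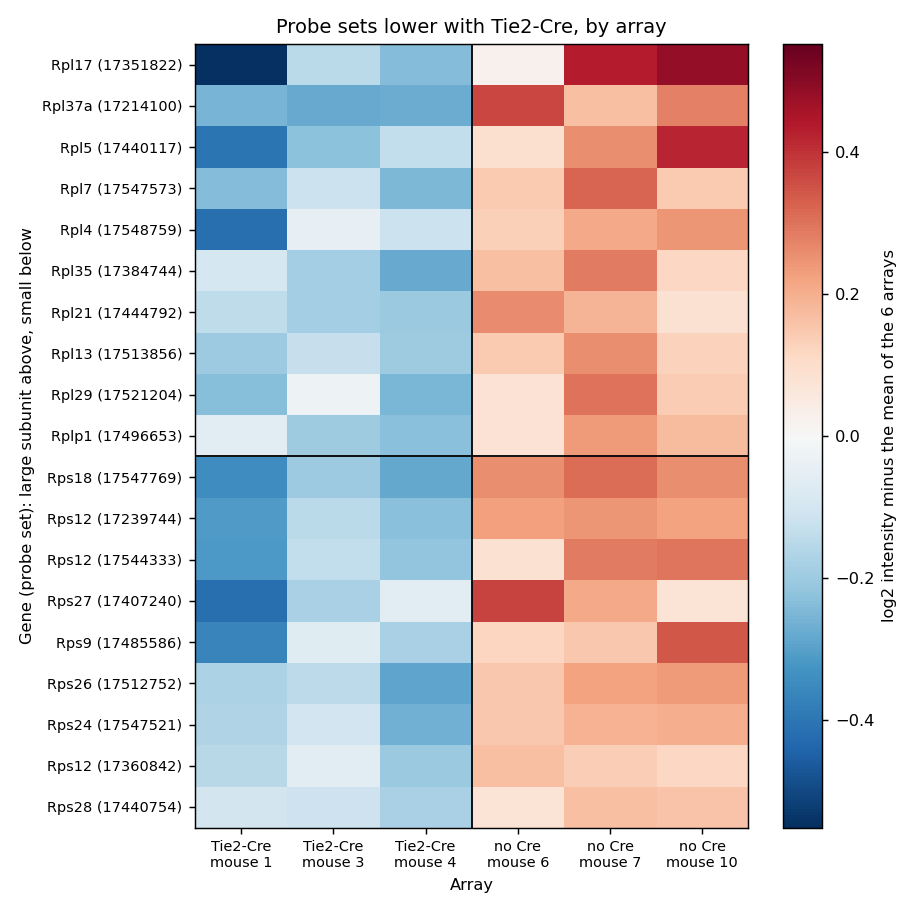
Log2 intensity minus the mean of the 6 arrays (colour, blue below and red above the mean) for the 19 distinct lower probe sets in rows and the 6 mice in columns, large subunit above the line. Tie2-Cre mouse 1 is the darkest blue for Rpl17, Rpl5, Rpl4, Rps27 and Rps9, and Tie2-Cre mouse 3 is the palest of its group in most rows.

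Probe sets of 1 gene often differed. Of 23 genes with several distinct probe sets, all were lower in 1 (Rps12), some were lower and some not past the threshold in 12, and none passed in 10. The sign of the change differed within 8 genes. Rps18 had the widest span: probe set 17289392 read 6.74, 6.42 and 6.56 with Tie2-Cre and 6.46, 6.27 and 6.35 without (0.21 ± 0.0974, adjusted p = 0.227). Probe set 17343692 read 7.03, 6.79 and 6.79 against 6.69, 6.76 and 6.88 (0.09, adjusted p = 0.605). Both overlapped between groups, in contrast to the fall of probe set 17547769 by 0.55, so Rps18 as a gene is not called lower on all its probe sets.

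In the 12 genes with mixed calls, the probe set with the highest mean level was the lower one in 5. Those 5 were Rps18, Rpl7, Rps26, Rps24 and Rps28. The other probe set of Rps26 lay at 3.60 log2 and changed by -0.10, and that of Rps28 read between 5.55 and 6.06 and changed by 0.15. In Rpl4, Rpl13, Rpl21, Rpl29, Rpl35, Rplp1 and Rps9 the lower probe set was a dimmer one. For Rpl21, probe sets 17312050 and 17496146 read 13.38 to 13.57 on all arrays and changed by -0.04 and -0.05, where the dimmer one fell by 0.36. For Rpl29, probe set 17212353 changed by -0.05 at 13.12 to 13.25, and for Rplp1, probe set 17527927 changed by -0.07 at 12.55 to 12.71. Rpl4 changed by -0.20 (adjusted p = 0.094) in its brighter probe set, in which the groups did not overlap. The other probe set of Rps9 (-0.29, adjusted p = 0.086), those of Rpl35 (-0.30 and -0.14) and that of Rpl13 (-0.22) were also negative and not past the threshold. With the brightest probe set alone, 10 of the 62 genes were lower (7.1% of 22180 genes).

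Of the 10 genes none of whose probe sets passed, Rpl3, Rplp0, Rpl27, Rps19, Rpl7a and Rpl41 had both signs. Rpl3, a protein near the site of peptide bond formation, changed by 0.03, 0.03 and -0.24. Rplp0, the base of the stalk, changed by -0.23 in the probe set at 11.18 to 11.59 and by 0.04 in the one at 7.23 to 7.45. The identical pair of Rps19 changed by -0.16 and the third Rps19 probe set by 0.09, with all 3 Tie2-Cre arrays of the latter on the high side. Rpl7a changed by -0.07 in both brighter probe sets and by 0.13 in the dimmer one, which was the only other member with all 3 Tie2-Cre arrays above. The 5 probe sets of Rpl41, the smallest ribosomal protein, changed by -0.14 to 0.00, and the groups overlapped in each. Rpl27 (-0.16 and 0.03), Rpl19 (-0.15 and -0.10), Rpl9 (-0.03 and -0.04), Rps20 (0.02 and 0.05) and Rpsa (-0.19 and -0.06) made up the rest.

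**Figure D3:**
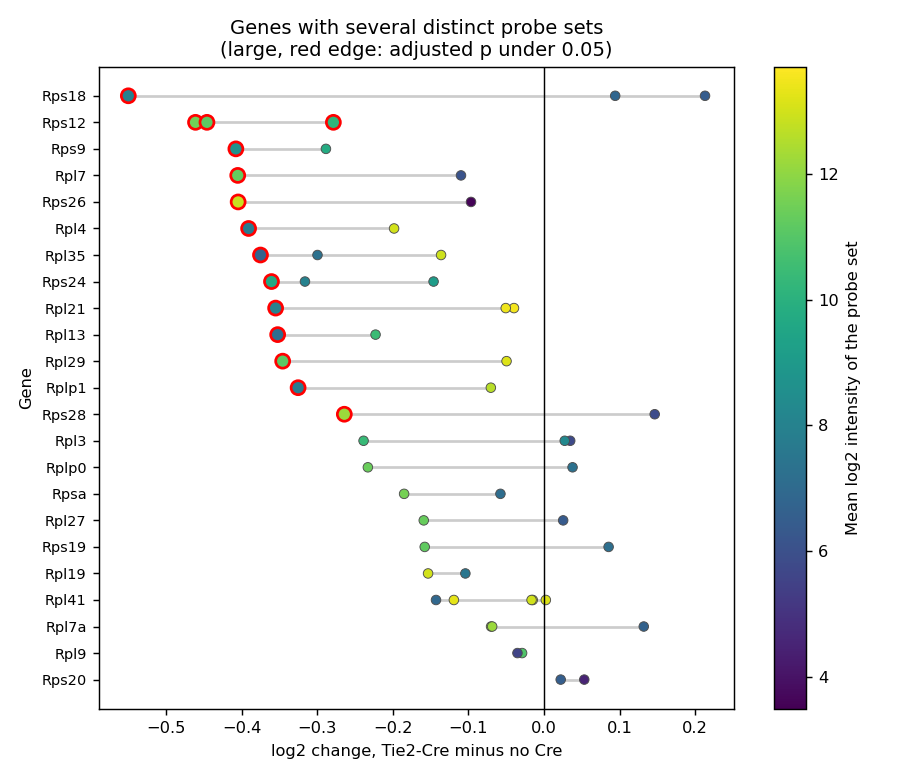
Change (log2, Tie2-Cre minus no Cre) of each distinct probe set of the 23 genes with several, 1 row per gene, coloured by mean log2 intensity over 6 arrays, with large red-edged points for an adjusted p under 0.05. Rps18 spans -0.55 to 0.21, and the brightest (yellow) points of Rpl21, Rpl29, Rpl35 and Rpl41 lie close to 0 or at small negative changes.

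By level of the probe set, the share of lower distinct members was 20.5% under 8 log2, 23.8% from 8 to 13 and 0% at 13 and above. These limits were chosen after the values were seen. A level here is a property of the probe set and is not compared between genes as an amount of RNA. Of 42 distinct members between 8 and 13, 41 had a negative change, 28 had all Tie2-Cre arrays below all no Cre arrays, and 10 were lower. Their median change was -0.22. Of all probe sets at that level 12.4% were lower, 55.4% had a negative change and 29.3% had all Tie2-Cre arrays below. Under 8, 9 of 44 were lower, 27 were negative and the median was -0.047, with 4.37% of all lower and 49.0% negative. All 3 Tie2-Cre arrays lay below in 31.8% of these members, against 11.1% of all at that level. At 13 and above, 0 of 9 members were lower by limma (0 also at an unadjusted p under 0.05) and the median was -0.05. All 3 Tie2-Cre arrays lay below in 33.3% of these members, against 21.7% of all. Of all 69 probe sets at that level, 0 were lower and 6 higher, and the highest value in the table was 14.12.

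Rps6, the ribosomal protein phosphorylated by S6 kinase, was the brightest member and read 13.58, 13.58 and 13.57 with Tie2-Cre and 13.58, 13.57 and 13.57 without. Its 6 arrays lay within 0.0153 log2, and 0 of the other probe sets had a smaller spread. Its change was 0.00 ± 0.0615 (95% interval -0.14 to 0.14). Rpl28 read 13.13, 13.10 and 13.12 against 13.26, 13.25 and 13.26 (-0.14 ± 0.0616, adjusted p = 0.214), so the groups did not overlap although the test was not passed. Its SD was 0.010 with Tie2-Cre and 0.0037 without, and that of Rps6 was 0.0069 and 0.0074. Both SEs are far larger, because limma draws the variance partly from all probe sets. With eBayes trend and robust, Rpl28 was called lower (limma adjusted p = 0.013). Whether the probes of these members were near saturation was not tested.

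Most members outside the calls had negative changes as well. Rpl38, known from mice with Hox patterning defects, read 11.37, 12.07 and 12.05 with Tie2-Cre and 12.19, 12.28 and 12.16 without (-0.39 ± 0.176, adjusted p = 0.226), a difference carried largely by Tie2-Cre mouse 1. Rpl37 read 5.83, 6.05 and 5.88 against 6.30, 6.32 and 6.12 (-0.33, adjusted p = 0.054). Rps3 read 10.71, 10.76 and 10.67 against 10.92, 10.96 and 10.91 (-0.22, adjusted p = 0.069), with the groups apart. Rplp2 (0.18 ± 0.133), Rps16 (0.15 ± 0.0739) and Rps28 (17343643, 0.15 ± 0.115) had the largest positive changes after Rps18 (17289392), and in each the groups overlapped.

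On the X chromosome, which matters here because of Xist, Rps4x read 11.76, 11.78 and 11.63 with Tie2-Cre and 11.96, 12.07 and 11.96 without (-0.27 ± 0.0743, adjusted p = 0.051). Rpl39 read 8.04, 7.83 and 7.87 against 7.90, 7.92 and 7.79 (0.05 ± 0.0817, adjusted p = 0.799). Rps4x narrowly missed the threshold and its groups were separate, whereas those of Rpl39 overlapped. The lower members lie on autosomes in the fit reported here, and Rps4x was also lower in 5 other settings.

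Paralogs of ribosomal proteins, some of which replace a standard protein in some tissues, did not pass. Rps27l, induced by p53, read 9.60, 9.60 and 9.61 against 9.76, 9.73 and 9.71 (-0.13 ± 0.0625, adjusted p = 0.253). Rpl3l (0.07), Rpl10l (-0.04) and Rpl39l (-0.00), and outside the pattern Rpl7l1 (-0.10) and Rpl22l1 (-0.05), were not past the threshold. Rpl32l, named for its likeness to Rpl32, changed by 0.05. Rpl3l (mean 6.05 log2), Rpl10l (4.36), Rpl39l (6.74) and Rpl32l (4.13) lay under the arrays' median. Of 7 measured paralogs, Rps4l included, limma called 0 at the adjusted threshold and 0 at an unadjusted p under 0.05.

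Outside the pattern, the small subunit gene Rps3a1 fell by 0.31 (10.43 with Tie2-Cre against 10.74, adjusted p = 0.029), and Fau, whose product is cut into Rps30, changed by -0.08 (adjusted p = 0.603). The pseudogene-typed Rpl6l read 10.92, 10.93 and 10.84 against 11.16, 11.40 and 11.24 (-0.37, adjusted p = 0.024), and Rps4l changed by -0.06. Ribosomal protein genes have many processed copies, and a probe set can read more than 1 of them, so the symbol of a probe set is uncertain as to its source. On 57 probe sets that list a ribosomal protein with other symbols, 46 changes were negative, the median was -0.14 and all 3 Tie2-Cre arrays were below in 26 (14.1% of all 41345). Of the 57, 10 also list a small RNA. These include all 3 that were higher at an unadjusted limma p under 0.05, of Rpl13a (0.46 and 0.24) and of Rpl13 (0.69). In the limma fit over all 41345 probe sets 0 of these 57 were lower, with 21 lower and 3 higher at an unadjusted p under 0.05. The share of all 41345 at that unadjusted cutoff was not counted. Of the 102 members 14 were lower in the same fit, where 3.03% of all were lower and 2.22% higher. The median change of all was -0.0031.

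Other genes of the ribosome's supply, 1 probe set per gene, were read against 7.1% lower and 4.72% higher among 22180 genes. Fits with 1 mouse left out have smaller shares lower over all 23521 probe sets. These were 4.64% without mouse 1, 5.51% without mouse 3, 5.49% without mouse 4, 4.52% without mouse 6, 3.93% without mouse 7 and 4.54% without mouse 10. The counts below with 1 mouse left out stand beside these shares. Of 69 measured assembly factors, which build the subunits in the nucleolus, 18 fell and 0 rose, with a median of -0.19. Leaving out 1 mouse gave 8 (without no Cre mouse 10), 9 (Tie2-Cre mouse 1), 10 (no Cre mouse 6 or 7), 11 (Tie2-Cre mouse 3) or 14 (Tie2-Cre mouse 4). Utp4, a factor of the small subunit processome, fell by 0.64 (adjusted p = 0.0017), the helicase Ddx21 by 0.45, nucleophosmin (Npm1) by 0.51 and nucleolin (Ncl) by 0.37. All 4 had adjusted p-values of 0.0076 or less.

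Of 16 elongation factors and other TOP messages, 7 fell and 0 rose (median -0.23), with 5 lower without Tie2-Cre mouse 3 or 4 and 4 without any of the others. Tpt1, a growth-related TOP message, fell by 0.73 (adjusted p = 0.0015), and Eef1b2 and Eef1d, which recharge elongation factor 1A with GTP, by 0.42 each. Eef1a1 (13.49 against 13.52) and Eef2 (13.19 against 13.24), both at the top of the scale, changed by -0.03 and -0.05 and did not pass. Of 30 initiation factors 8 fell and 0 rose (median -0.17), among them the helicase Eif4a1 (-0.51, adjusted p = 0.0045), Eif5b (-0.49), the cap-binding Eif4e (-0.29) and Eif3h (-0.28). The initiation factors lower were 2 without mouse 1, 7 or 10, 3 without mouse 6, 4 without mouse 3 and 5 without mouse 4. Eif3e, Eif3h and Npm1 are in more than 1 of these lists.

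Of 13 genes of RNA polymerase I, which transcribes ribosomal RNA, and its factors, 4 fell and 0 rose (median -0.085), with 1 lower without no Cre mouse 6 or 7, 2 without mouse 1 or 10 and 3 without Tie2-Cre mouse 3 or 4. Myc, a transcription factor of growth, fell by 0.53 (8.71 against 9.23, adjusted p = 0.0037), Taf1d by 0.36, Polr1a by 0.38 and Polr1c by 0.39. Ubtf (0.25), the upstream binding factor of ribosomal DNA, was not past the threshold. Of 14 regulators in the mTORC1 and S6 kinase pathway limma called 0 at the adjusted threshold and 2 lower at an unadjusted p under 0.05, with a median of 0.02. The 4 smallest p-values there were those of Cnbp (-0.19), Larp4 (-0.21), Eif4ebp1 (-0.16) and Mlst8 (0.20), and Mtor itself (9.42 against 9.30) and Larp1 (11.23 against 11.15) were not past.

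Mitochondrial ribosomal proteins, which serve the separate ribosomes of mitochondria, were lower in 6 of 71 and higher in 0 (median -0.097), a share near that of all genes. The count was 0 without mouse 1, 6 or 7, 1 without Tie2-Cre mouse 4 and 3 without mouse 3 or 10. Mrpl13 (-0.31), Mrpl42 (-0.37), Mrps10 (-0.40) and Mrps23 (-0.31) had the smallest p-values. Of 38 proteasome subunits 3 fell, Psmb7 (-0.45), Psma1 (-0.36) and Psma2 (-0.26), and 1 rose, the immunoproteasome subunit Psmb10 (0.73), with a median of -0.10. Without no Cre mouse 6 or 10 the count lower was 1, and without the others 2 to 3. The same measure gave a median of -0.16 for the 62 member genes and -0.0042 for all genes. No difference between these lists was tested.

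**Figure D4:**
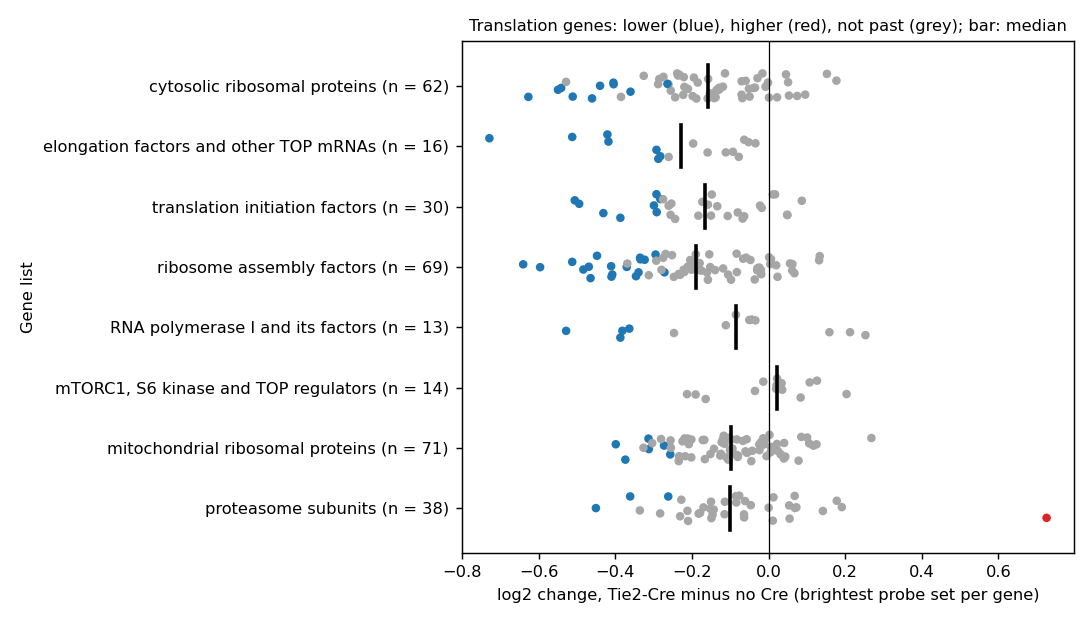
Change (log2, Tie2-Cre minus no Cre, brightest probe set per gene) of each measured gene in 8 lists, with blue for lower, red for higher and grey for not past an adjusted p of 0.05, and a bar at the median. Medians lie below 0 in all lists but the mTORC1 list, which is at 0.02.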

How the data were processed

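RNA of 6 mice was measured on 1 array each. The authors ran RMA in Expression Console (Affymetrix; version not given in the sources used here), per the labels. The deposited intensities are on a linear scale (5.13 to 17822) and were turned into log2 here with nothing added. RMA corrects background and quantile-normalizes, so a shift shared by most genes would not show. The deposited values carry no detection calls, scan dates or slides.

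In all 41345 probe sets were listed and 23521 had 1 symbol. The Tie2-Cre and no Cre groups were compared by limma 3.58.1 (lmFit and eBayes, two-sided) in R 4.3.3 and data.table version 1.17.8, with Benjamini-Hochberg adjustment over all 23521 and a threshold of 0.05. Lists used the brightest probe set per gene. The number of arrays, 3 per group, limits the precision. P-values set a change against the spread between these mice, which limma moderates towards that of all tested probe sets.

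Members and lists were chosen with earlier results of these data known. Named were all lower probe sets, the 5 largest and smallest changes, genes with several probe sets, X-linked members, paralogs and up to 4 genes per list by p. Rpl11, Rpl26, Rpl37, Rpl38, Rps3, Pecam1, Tek, Cldn5, Emcn, Rpl28, Rps6, Rpl32l, Eef1a1, Eef2, Ubtf, Mtor and Larp1 were added after their values were seen. The fit was run on simulated data with known shifts. A minimum number of recovered calls was required only for shifts larger than any change of a member. It is therefore no check of calls of the size reported here. Promoter windows came from RefSeq (GRCm38.p6).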

Additional observations from a re-analysis of the deposited data

How the results depend on the processing

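No paired analysis was possible because the mouse numbers differ between the groups. Background correction, slides and scan dates could not be varied from the deposited values. No called member changed direction under the 18 alternatives that keep probe sets apart, of which 3 (identical probe sets entered once, levels of at least 13 left out, pseudogene-typed symbols counted as members) were chosen after seeing the data, and no member was higher in any of them. Of the 24 lower probe sets, 4 kept their call in all of them.

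With the brightest probe set per gene, 11 of 62 genes were lower, 4 of 39 in the large and 7 of 23 in the small subunit, where 7.17% of all genes were. With the mean of a gene's probe sets, 9 of 62 were lower, 5 large and 4 small. With all 41345 probe sets tested, 14 of 102 members were lower and 4 of 61 in the large subunit, and the lists gave 4 TOP messages and elongation factors, 2 initiation factors, 9 assembly factors, 2 genes of RNA polymerase I and 0 mitochondrial ribosomal proteins lower, where 3.03% of all were. That setting raises the number of tests and refits the variances. With eBayes trend and robust, 38 members were lower (18 in the large subunit), as were 15 initiation factors, 1 mTORC1 gene, 10 mitochondrial ribosomal proteins and 8 proteasome subunits, where 9.39% of all probe sets were lower against 7.05% in the reported fit. In that setting, and with a minimum mean log2 of 5, with the dimmest 33.3% left out, after renewed quantile normalization and with 16 added before log2, 1 gene of RNA polymerase I was higher. Proteasome subunits lower were 5 with the minimum of 5, 7 without the dimmest probe sets and 5 with 16 added, and without the dimmest probe sets 10 of 68 mitochondrial ribosomal proteins were lower. Of all probe sets 8.77% were lower with the minimum of 5, 12.9% without the dimmest and 8.33% with 16 added. With identical probe sets entered once, 9 small subunit probe sets were lower, and without levels of at least 13 the median change of the members was -0.19. The cause of these shifts was not tested.

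Leaving out each mouse in turn gave 4 to 20 lower members and 0 higher, a median change of -0.18 to -0.14, 1 to 8 lower in the large and 3 to 12 in the small subunit, 4 to 5 lower TOP messages and elongation factors, 2 to 5 initiation factors, 8 to 14 assembly factors, 1 to 3 genes of RNA polymerase I, 0 to 3 mitochondrial ribosomal proteins, 1 to 3 proteasome subunits lower and 0 to 1 higher, and 0 mTORC1 genes. The lowest count of members came without no Cre mouse 7. Of all probe sets, 3.93% to 5.51% were lower in these fits, against 7.05% with all mice. The number of arrays, 3 per group, limits the precision of every change, and no signal over background came with the values.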
